A study of Mus musculus with 22 samples.

Results

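The effect of Apoe loss on retinal microglia that had taken up dead neurons was measured in 11 RNA-seq libraries, chosen by their sample titles from the 22 of the series: 6 pools of phagocytic Apoe-/- microglia and 5 pools of phagocytic wild-type microglia. The wild-type mice were C57BL/6, and the strain of the knockout mice is given only as Apoe KO. Mice of both groups were 12 weeks old and had received apoptotic neurons into the vitreous, and microglia were profiled 24 hours later, per the header of the submitters' expression table. Cells were sorted as CD11b+, Ly6c- and Fcrls+, and those carrying the Alexa488 label were taken as phagocytic. A pool held 5 to 6 retinas grouped by sex and genotype and gave 100 to 500 phagocytic cells, and lysates were adjusted to between 100 and 300 cells. Both groups therefore share the injection, the label gate and the time, and no uninjected eye enters the comparison. Neither the sex of a given pool nor the origin and backcrossing of the Apoe-/- line is stated in the labels, so loss of Apoe and any strain difference carried with the allele cannot be told apart. Because the labels name pools and not animals, p-values measure the spread between pools. For genes that spread was estimated over all 22 libraries, phagocytic and non-phagocytic, fitted as independent.

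Apolipoprotein E is the lipid-carrying protein through which microglia and astrocytes export cholesterol, and it is itself a target of the liver X receptors, which sense oxysterols. Microglia that engulf dying neurons lower homeostatic genes such as P2ry12 and Tmem119 and raise a group often called the neurodegenerative or MGnD signature, with Apoe, Spp1, Gpnmb and Clec7a among its members. The title of the series ties this phenotype to Apoe.

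The libraries held between 1131045 and 3643499 reads assigned to genes in the Apoe-/- pools and between 2154171 and 3039803 in the wild-type pools. The Apoe-/- minus wild-type difference in means was -570506 reads, against SDs of 353801 in wild-type and 952938 in Apoe-/- pools. A two-sided exact permutation test of means, 5 against 6, gave p = 0.26 (adjusted over 5 library measures, p = 0.433). The smallest p this design allows is 0.00433. Apoe-/- pools 3 to 6 held 1131045 to 1642213 reads, below every wild-type pool. Apoe-/- pool 2 lay within the wild-type range and pool 1 above it, so depth partly followed genotype. Reads from 12 satellite-like and repeat-rich genes took 17.2% ± 4.17 (SD, n = 5) of the wild-type and 25.0% ± 8.83 (SD, n = 6) of the Apoe-/- reads (exact permutation p = 0.117). Y-linked genes summed to 34.6 CPM (TMM-scaled counts per 1e6 reads) in wild-type pool 5 and 36.8 to 44.7 CPM in Apoe-/- pools 4 to 6, against 104 to 173 CPM in the other 7 pools; Apoe-/- pools 4 to 6 were also the shallowest libraries. The microglial markers checked the sort: Cx3cr1, the fractalkine receptor, was at 1037 to 2596 CPM in wild-type and 1075 to 2562 CPM in Apoe-/- pools. P2ry12, Tmem119, Fcrls and Sall1 were detected in every pool.

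At an adjusted p under 0.05, 4 of 12415 genes tested differed between the groups (0.0322%): Apoe, Apoc2 and Slc1a5 were lower in Apoe-/- phagocytic microglia (0.0242%) and the pseudogene Gm1840 was higher (0.00805%). At an unadjusted p under 0.05 there were 822 genes (6.62%), of which 302 were higher (2.43%) and 520 lower (4.19%). All Apoe-/- pools lay below all wild-type pools for 61 genes (0.491%) and above them for 37 (0.298%). The median log2 fold change over the genes tested other than Apoe was -0.004. Of those genes 49.5% had a positive and 50.5% a negative value. These shares, with the 2.43% higher and 4.19% lower at an unadjusted p under 0.05, are the background for the list counts below. In these sentences and below, a positive log2 fold change means higher in Apoe-/-, and a value after a gene name with no unit is its log2 fold change. Adjusted p-values are Benjamini-Hochberg values over all genes tested from the quasi-likelihood test of edgeR. Errors are approximate standard errors, the absolute log2 fold change divided by the square root of that test's F statistic.

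**Figure D1:**
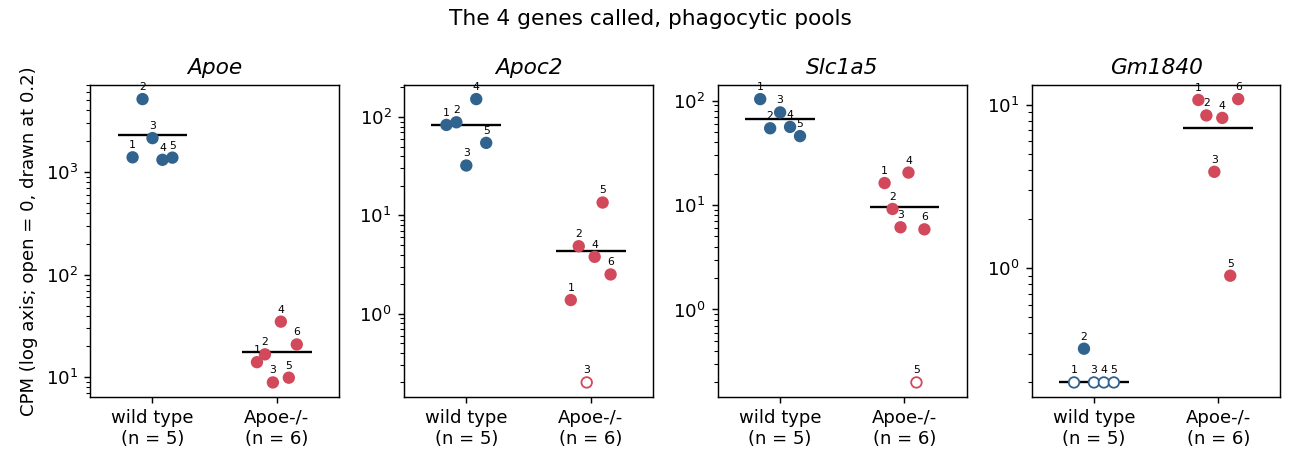
Normalised read count (CPM, log axis) of Apoe, Apoc2, Slc1a5 and Gm1840 in each pool; points are numbered by pool, bars are group means, and open points are pools at 0, drawn near the foot of the axis as is the wild-type mean of Gm1840. For each of the 4 genes no Apoe-/- pool overlaps a wild-type pool.

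Apoe (ENSMUSG00000002985.16; GRCm38 chr7:19696109-19699188, minus strand) was the targeted gene and was read in every library first. Its level was 1393, 5145, 2143, 1317 and 1383 CPM in wild-type pools 1 to 5, and from 8.91 through a median of 15.4 to 34.9 CPM in the 6 Apoe-/- pools. No pool went against its label: the highest Apoe-/- pool stayed below the lowest wild-type pool, and the log2 fold change was -7.03 ± 0.43 (adjusted p = 2.77e-11). The reads left in the Apoe-/- pools were spread unevenly over the annotated transcripts. The main coding transcript, Apoe-209, had 2199 to 10936 estimated reads in the wild-type pools and 0 to 32.8 in the Apoe-/- pools, whereas the retained-intron transcript Apoe-211 had 1.21 to 16.7 and 2.35 to 13.1 reads. Transcript estimates of one gene share reads, so these are allocations by the quantifier rather than separate measurements.

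Apoc2, the activator of lipoprotein lipase, lies beside Apoe in the apolipoprotein cluster (chr7:19671579-19677941, minus strand). It was at 83.2, 88.5, 32.2, 152 and 54.6 CPM in wild-type pools 1 to 5, and from 0 through a median of 3.15 to 13.5 CPM in the 6 Apoe-/- pools. The groups did not overlap and Apoc2 fell with a log2 fold change of -4.39 ± 0.77 (adjusted p = 0.0152). This call was lost with limma-voom, without wild-type pool 4, without Apoe-/- pool 2, 4 or 6, and without either the 4 pools of few Y-linked reads or the 2 pools of most satellite-like reads. Apoc4, a further apolipoprotein gene between Apoc2 and Apoe, had a log2 fold change of 0.64 ± 0.28 (adjusted p = 0.74), and 94.1% of its wild-type reads were placed on a retained-intron transcript. Apoc1 had 0 to 1.17 CPM in wild-type and 0 to 1.93 CPM in Apoe-/- pools and was not tested.

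Slc1a5, a sodium-dependent neutral amino acid transporter that carries glutamine, lies 2.91 Mb from Apoe (chr7:16781340-16798274). It was at 103, 54.4, 77.2, 56.0 and 45.7 CPM in wild-type pools 1 to 5, and from 0 through a median of 7.65 to 20.5 CPM in the 6 Apoe-/- pools. All Apoe-/- pools lay below all wild-type pools, and the gene fell with a log2 fold change of -2.74 ± 0.43 (adjusted p = 0.00405). The reads of the wild-type pools fell largely on a retained-intron transcript: Slc1a5-202 had 77.0 to 153 estimated reads in the wild-type pools and 0 in all 6 Apoe-/- pools. The coding transcript Slc1a5-201 had 23.1 to 174 reads in wild-type and 0 to 47.9 in Apoe-/- pools, which overlap. The Slc1a5 call was lost when only the 11 phagocytic libraries entered the fit and when the 2 libraries with most satellite-like reads were left out. Among the other amino acid transporters, Slc1a3, a glutamate transporter also listed as a Mueller glia marker, was at 1.41 ± 0.44. Slc38a6 was at 0.44 ± 0.27, and neither was called. Over the whole transporter list, Slc1a5 included, 12 of 16 tested members had a positive and 4 a negative value, with unadjusted p under 0.05 for 1 higher and 1 lower, the lower one being Slc1a5 itself, and the median was 0.05.

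Gm1840 (a processed pseudogene on GRCm38 chr8:5639580-5641011) was at 0, 0.322, 0, 0 and 0 CPM in wild-type pools 1 to 5, and from 0.901 through a median of 8.48 to 10.9 CPM in the 6 Apoe-/- pools. Reads were absent from 4 wild-type pools and present in all Apoe-/- pools, and the log2 fold change was 5.77 ± 0.87 (adjusted p = 0.00308); because the wild-type pools are nearly all at 0, that size depends on the prior count. The pseudogene is a near copy of Gpi1, which encodes the glycolytic enzyme glucose-6-phosphate isomerase and lies on chromosome 7. Aligned to all annotated transcripts with blastn, it matched Gpi1 and the predicted gene Gm26762; against Gpi1-201, 1046 of its 1432 bases matched at 98.7% identity with 14 mismatches. A stretch of 80 bases from the Gpi1 coding sequence (transcript bases 755 to 834, against bases 387 to 466 of Gm1840) is shown. The pair differs there at 2 bases, in capitals, and no 80-base stretch of the aligned coding sequence held more differences.
Gm1840: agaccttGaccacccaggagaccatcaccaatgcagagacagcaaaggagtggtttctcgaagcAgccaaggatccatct
Gpi1: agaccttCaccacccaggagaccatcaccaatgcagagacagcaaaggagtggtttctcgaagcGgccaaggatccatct
Reads of such stretches can be shared between the copies, so the Gm1840 count is uncertain. Gpi1 itself was at 367 to 579 CPM in wild-type and 302 to 537 CPM in Apoe-/- pools, with a log2 fold change of -0.23 ± 0.18 (adjusted p = 0.827). The Gm1840 call was lost with limma-voom and without the 4 pools of few Y-linked reads, and the gene was not tested under the stricter filter or with only the 11 phagocytic libraries.

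Genes close to Apoe on chromosome 7 were examined together, because chromosome flanking a targeted allele can differ in origin from that of the control strain. Within 1 Mb of Apoe, 27.3% of 33 genes tested had an unadjusted p under 0.05, 2 higher and 7 lower, and within 5 Mb 5 of 87 genes were higher and 15 lower at that level. Between 5 and 10 Mb the share was 8.89% of 135, between 10 and 20 Mb 8% of 150, beyond 20 Mb 7.05% of 667 and on other chromosomes 6.42% of 11375. The genes called within 5 Mb were Apoc2 and Slc1a5, and none was called farther out on this chromosome. Of the flanking genes, Tomm40, a subunit of the mitochondrial import pore, had -0.92 ± 0.30 (adjusted p = 0.493), Clptm1 -1.12 ± 0.28 (adjusted p = 0.288), the adhesion molecule Nectin2 0.02 ± 0.39 and the NF-kB regulator Bcl3 0.02 ± 0.56. The Tomm40 reads were placed on different transcripts: Tomm40-202 had 226 to 395 estimated reads in wild-type pools and 0 in Apoe-/- pools 3, 4 and 5, where Tomm40-201 had 26.7, 36.7 and 67.3.

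**Figure D2:**
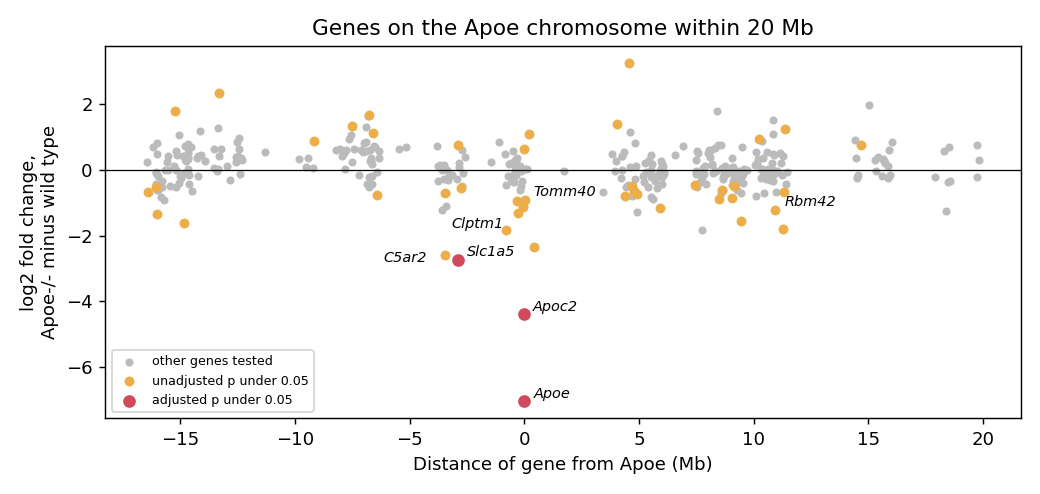
Log2 fold change of each gene tested within 20 Mb of Apoe on the same chromosome, against its distance from Apoe in Mb; colours mark unadjusted and adjusted p under 0.05. Apoe, Apoc2 and Slc1a5 are the called genes, and of the 87 genes within 5 Mb other than Apoe 5 higher and 15 lower had an unadjusted p under 0.05.

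Several genes stood just short of the threshold and were chosen for mention after their values were seen. Spi1, which encodes the myeloid transcription factor PU.1, was at 176, 157, 228, 212 and 129 CPM in wild-type pools 1 to 5, and from 38.3 through a median of 68.0 to 137 CPM in the 6 Apoe-/- pools. Apoe-/- pool 1 lay among the wild-type pools and the other 5 below them, and the log2 fold change was -1.28 ± 0.26 (adjusted p = 0.0785). C5ar2, a second receptor for the complement fragment C5a, lies on chromosome 7 within 5 Mb of Apoe and was at 12.9 to 64.4 CPM in wild-type and 0.54 to 10.9 CPM in Apoe-/- pools, without overlap (-2.59 ± 0.53, adjusted p = 0.0771). Rps2, a protein of the small ribosomal subunit with many processed copies in the genome, had -1.57 ± 0.31 (adjusted p = 0.0571), and Rbm42, an RNA-binding protein gene also on chromosome 7, -1.22 ± 0.25 (adjusted p = 0.0771). Without Apoe-/- pool 1, the deepest library, 23 genes were called, 22 of them lower, and these included Spi1, Rps2, C5ar2, Rbm42, C1qc and Bin1. DESeq2 and the fit without a filter also called Spi1, C5ar2, Rps2 and Rbm42. The GC adjustment called Spi1 and Rps2, and leaving out wild-type pool 5 called C5ar2 and Rps2. Rps2 was further called with limma-voom and without satellite-like genes, and C5ar2 with the replicate block. The remaining alternatives called none of Spi1, C5ar2, Rps2 and Rbm42.

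The MGnD genes were the group the series title points to, and no member other than Apoe passed the threshold. Of this list 15 of 44 tested members had a positive and 29 a negative value. Unadjusted p was under 0.05 for 0 higher and 7 lower, against 2.43% higher and 4.19% lower over all genes tested. The median log2 fold change was -0.23, against -0.004 over all genes. Spp1, the secreted phosphoprotein osteopontin, was at 1343, 3291, 817, 842 and 691 CPM in wild-type pools 1 to 5, and from 34.3 through a median of 147 to 614 CPM in the 6 Apoe-/- pools. Every Apoe-/- pool lay below every wild-type pool, the log2 fold change was -2.41 ± 0.61, and the adjusted p was 0.288. Spp1 was called only in the fit without a filter (adjusted p = 1.09e-07). Ccl6, a CC chemokine of myeloid cells, was at 934, 993, 437, 789 and 558 CPM in wild-type pools 1 to 5, and from 182 through a median of 269.7 to 489 CPM in the 6 Apoe-/- pools. Its groups overlapped, with a log2 fold change of -1.30 ± 0.28 (adjusted p = 0.144). Ccl6 was called with DESeq2, without a filter, with the Y-linked level as covariate and with the replicate block, and in no other alternative. Gpnmb, a lysosome-associated glycoprotein, was at 263, 366, 299, 161 and 98.6 CPM in wild-type pools 1 to 5, and from 11.7 through a median of 61.7 to 225 CPM in the 6 Apoe-/- pools. Apoe-/- pools 1 and 6 lay within the wild-type range and the other 4 below it (-1.28 ± 0.68, adjusted p = 0.798).

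Other members spanned both signs. The galectin gene Lgals3 was at -0.92 ± 0.40, the integrin Itgax at -0.88 ± 0.40, the calcitonin-receptor partner Ramp1 at -1.55 ± 0.52 and the beta-glucan receptor Clec7a at -0.34 ± 0.25. Trem2, the lipid-sensing receptor of microglia, was at -0.17 ± 0.36 (95% interval -0.87 to 0.53), its adaptor Tyrobp at -0.27 ± 0.21 and the phosphatidylserine-bridge receptor Axl at -0.06 ± 0.29 (-0.63 to 0.51). Lipoprotein lipase, Lpl, was at -0.30 ± 0.29 and the tetraspanins Cd9 and Cd63 at -0.37 ± 0.28 and 0.15 ± 0.21. Cystatin F, Cst7, was at 0.45 ± 0.34, ferritin heavy chain, Fth1, at 0.20 ± 0.24 and the lipid-droplet coat gene Plin2 at 0.07 ± 0.28. None of these passed the threshold, and their intervals allow changes in either direction where they span 0. The 95% intervals use a normal quantile and are somewhat narrower than the quasi-likelihood test implies.

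**Figure D3:**
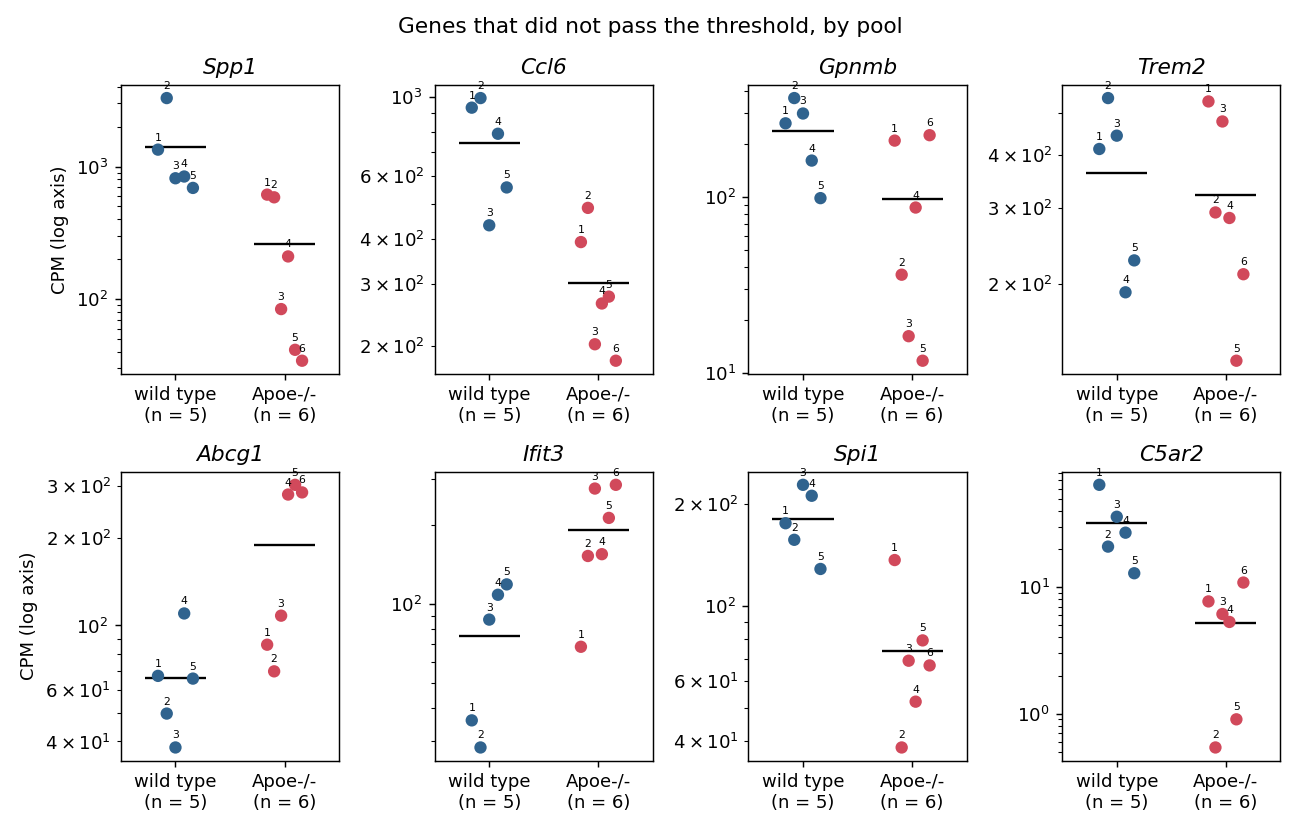
CPM (log axis) of 8 genes that did not pass the threshold, by pool and numbered as above, with group means as bars. Spp1 and C5ar2 do not overlap between groups; 1 Apoe-/- pool lies within the wild-type range for Ccl6 (pool 2) and for Spi1 (pool 1).

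Monocyte markers, given beside the MGnD genes, lay mostly in the same direction. Of 21 tested, 19 had a negative value, and the median was -1.43. An unadjusted p under 0.05 was reached by 10 of the 21, all lower, against 4.19% lower over all genes tested. None was called. Their summed level was 1612 to 5015 CPM in the wild-type pools and 679 to 1838 CPM in the Apoe-/- pools, and no marker of the list was at 0 in all 11 pools. Fn1, fibronectin, was at 874 to 2133 CPM in wild-type and 221 to 856 CPM in Apoe-/- pools without overlap (-1.27 ± 0.36, adjusted p = 0.393), the chemokine receptor Ccr2 at -1.77 ± 0.53 and coagulation factor F10 at -1.82 ± 0.55. In bulk pools fewer cells of a type and less RNA per cell cannot be told apart, and the part of these cells in the MGnD values was not tested. Of the border macrophage markers, 4 of 12 tested members had a positive and 8 a negative value, with unadjusted p under 0.05 for 0 higher and 2 lower (median -0.51). Of its members, F13a1 was at -1.03 ± 0.45, Ms4a7 at -0.85 ± 0.39 and Pf4 at -0.90 ± 0.51.

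The homeostatic microglia genes were not called either: 10 of 40 tested members had a positive and 30 a negative value, with unadjusted p under 0.05 for 0 higher and 1 lower, with a median of -0.24. P2ry12, the ADP receptor, was at -0.31 ± 0.49, Tmem119 at -0.31 ± 0.43, Cx3cr1 at -0.21 ± 0.29, Fcrls at -0.39 ± 0.43 and the transcription factor Sall1 at 0.04 ± 0.23. Bin1, a membrane-curving adaptor, had the smallest p of the list (-0.83 ± 0.29, adjusted p = 0.584); Apoe-/- pool 1 stood at 553 CPM and the other 5 at or below 223 CPM. The list's summed level was 11594 to 35349.8 CPM in the wild-type pools and 11984 to 29744 CPM in the Apoe-/- pools. Tmem173, which encodes STING, was at -0.50 ± 0.28 and the efferocytosis receptor Mertk at 0.41 ± 0.26. In the list of TGF-beta and activin signalling, which sustains the homeostatic state, 12 of 25 tested members had a positive and 13 a negative value, with unadjusted p under 0.05 for 0 higher and 2 lower (median -0.02; -0.0777 to 0.0394 with 1 pool left out, changing sign without wild-type pool 1, 3, 4 or 5 or Apoe-/- pool 1, 2 or 5). Of its members, Inhba was at -2.45 ± 0.81, Tgfbr2 at -0.70 ± 0.26, Acvr1 at 0.58 ± 0.31, Tgfbr1 at 0.05 ± 0.27 and Tgfb1 at -0.22 ± 0.30.

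Lipid genes showed the cholesterol exporters above and most synthesis genes below 0. Abcg1, which exports cholesterol to lipoproteins, was at 67.2, 49.9, 38.2, 109.9 and 65.7 CPM in wild-type pools 1 to 5, and from 69.6 through a median of 195 to 304 CPM in the 6 Apoe-/- pools. Apoe-/- pools 4, 5 and 6 were the highest of all 11 and the other 3 lay within the wild-type range; the log2 fold change was 1.51 ± 0.43 (adjusted p = 0.393). Abca1, the exporter to lipid-poor apolipoproteins, showed the same 3 pools highest, at 93.0 to 217 CPM in wild-type and 147 to 478 CPM in Apoe-/- pools (0.98 ± 0.39, adjusted p = 0.675). Those 3 pools are also the Apoe-/- pools with few Y-linked reads and the shallowest libraries. Wild-type pool 5, the lowest in Y-linked reads, was at 65.7 CPM for Abcg1 and 217 CPM for Abca1. Without a gene filter Abcg1 was called (1.46 ± 0.29, adjusted p = 0.00174) and Abca1 was not. Neither was called with the Y-linked level as covariate or without the 4 pools of few Y-linked reads. Because the main fit called neither, those 2 fits had no call to lose and cannot decide the part of Y-linked reads. The part of Y-linked reads or depth in the Abcg1 and Abca1 values was not tested. Over the LXR and efflux list, 13 of 23 tested members had a positive and 10 a negative value, with unadjusted p under 0.05 for 3 higher and 1 lower, Apoc2 among the latter, with a median of 0.02 (-0.0872 to 0.0961 with 1 pool left out, changing sign without wild-type pool 1 or 3 or Apoe-/- pool 4). Srebf1, a further LXR target, was at 0.17 ± 0.25.

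For cholesterol and fatty acid synthesis, 3 of 29 tested members had a positive and 26 a negative value, with unadjusted p under 0.05 for 0 higher and 2 lower, with a median of -0.30. Sc5d, a late enzyme of the cholesterol route, was at -0.85 ± 0.37, Acat2 at -1.07 ± 0.49, Mvd at -0.65 ± 0.32 and the desaturase Scd2 at -0.08 ± 0.24. Among lipoprotein and scavenger receptors (median -0.15; -0.28 to 0.0183 with 1 pool left out, changing sign without wild-type pool 2), Marco, a class A scavenger receptor, was at 2.73, 20.3, 5.14, 49.2 and 49.3 CPM in wild-type pools 1 to 5, and from 35.6 through a median of 144 to 234 CPM in the 6 Apoe-/- pools. Its groups overlapped (2.44 ± 0.73, adjusted p = 0.426), while the Apoe receptors Lrp1, Lrp8 and Sorl1 were at 0.00 ± 0.23, -1.44 ± 0.73 and -0.73 ± 0.40. For lipid droplets and fatty acid use, 10 of 27 tested members had a positive and 17 a negative value, with unadjusted p under 0.05 for 1 higher and 0 lower (median -0.06; -0.0875 to 0.0208 with 1 pool left out, changing sign without wild-type pool 2 or Apoe-/- pool 5). Of its members, Cpt1a, the mitochondrial fatty acid importer, was at 0.53 ± 0.23, the lipid chaperone Fabp5 at -0.96 ± 0.55 and the lipolysis co-activator Abhd5 at 0.44 ± 0.29.

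**Figure D4:**
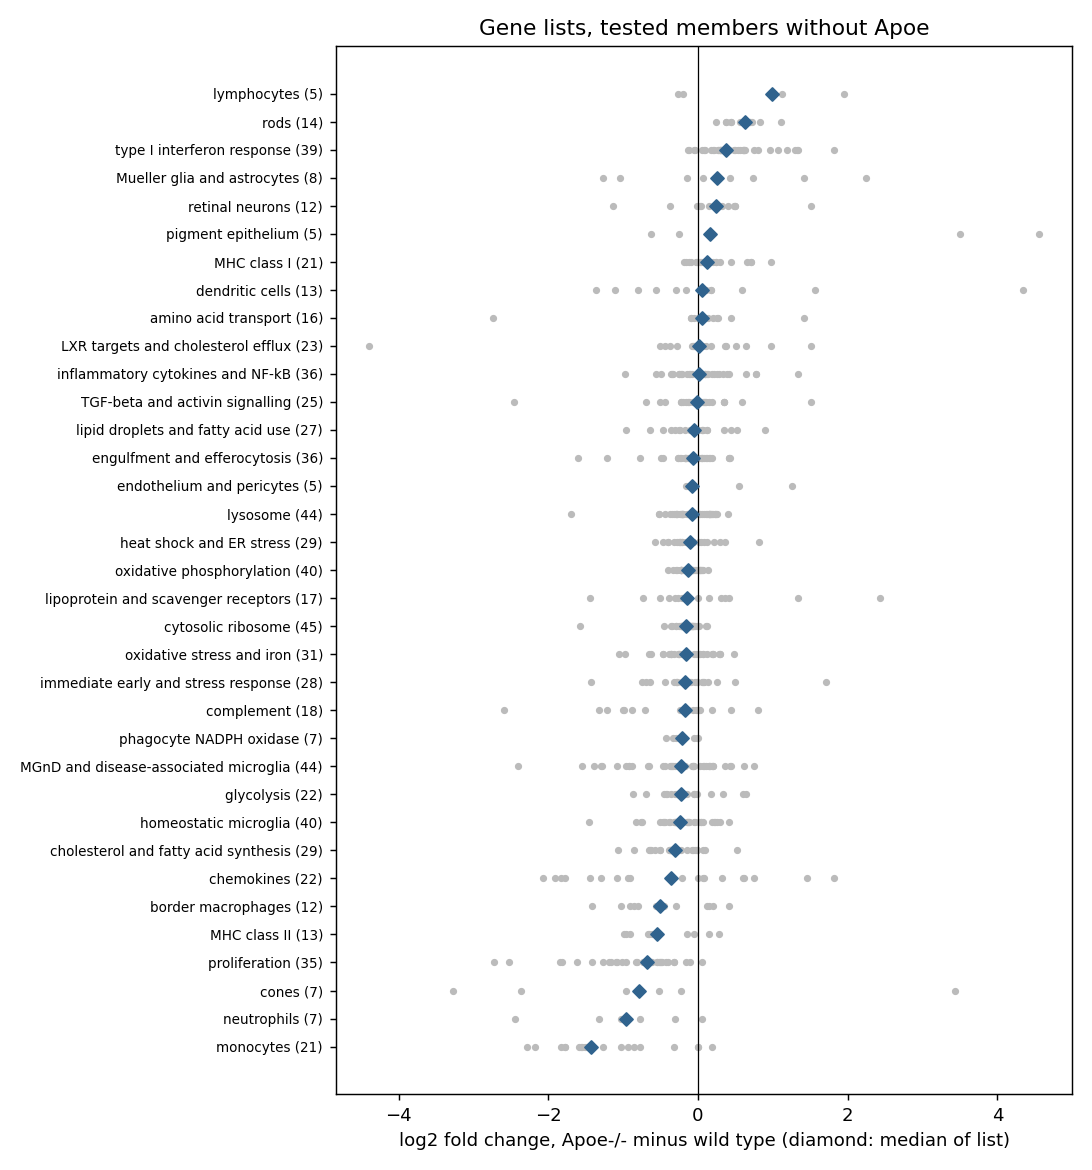
Log2 fold changes of the tested members of each gene list (grey points; number tested in brackets) with the list median as a diamond. Monocyte and proliferation lists lie mostly below 0, rod and interferon lists mostly above; no member other than Apoc2 and Slc1a5 was called.

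The engulfment and lysosome lists had medians near that of all genes (-0.004), and the phagocyte NADPH oxidase list lay lower. In the engulfment list 14 of 36 tested members had a positive and 22 a negative value, with unadjusted p under 0.05 for 0 higher and 4 lower (median -0.06; -0.16 to 0.00031 with 1 pool left out, changing sign without wild-type pool 2). Its leading member by p was C1qc, a chain of the complement component C1q, at -1.22 ± 0.32 (adjusted p = 0.3), the GTPase Rac1 at -0.77 ± 0.23 and Anxa1 at -1.61 ± 0.67. Of the partner chains of C1qc, C1qa was at 0.01 ± 0.29 and C1qb, chosen after its values were seen, at -0.07 ± 0.29. In the lysosome list 19 of 44 tested members had a positive and 25 a negative value, with unadjusted p under 0.05 for 0 higher and 1 lower (median -0.08; -0.13 to 0.0199 with 1 pool left out, changing sign without wild-type pool 2). Of its members, the membrane protein Lamp1 was at -0.52 ± 0.21, the proteases Ctsk and Ctsb at -1.70 ± 0.94 and 0.18 ± 0.23 and the sulfatase Galns at -0.51 ± 0.32. All 7 phagocyte NADPH oxidase genes had negative values (median -0.22), of which Ncf4 was at -0.43 ± 0.20, Cyba at -0.33 ± 0.17 and Ncf1 at -0.22 ± 0.19.

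Interferon-response genes were mostly above 0 and none was called: 35 of 39 tested members had a positive and 4 a negative value. Unadjusted p was under 0.05 for 7 higher and 0 lower, against 2.43% higher and 4.19% lower over all genes tested. The median was 0.38. The list's summed level overlapped, at 2549 to 5547 CPM in the wild-type pools and 2767 to 7415 CPM in the Apoe-/- pools. Apoe-/- pools 4 to 6 were the highest of all 11, and wild-type pools 4 and 5 lay above Apoe-/- pools 1 to 3. Ifit3, an antiviral RNA-binding factor, was at 35.9, 28.3, 87.0, 108 and 119 CPM in wild-type pools 1 to 5, and from 68.6 through a median of 184 to 284 CPM in the 6 Apoe-/- pools. The ranges overlapped, with a log2 fold change of 1.34 ± 0.43 (adjusted p = 0.486). Ifit2 was at 1.82 ± 0.60, the ISG15 protease Usp18 at 1.07 ± 0.44 and tetherin, Bst2, at 0.61 ± 0.28. The MHC class I list had a median of 0.12 (14 of 21 tested members positive and 7 negative). Of its members, H2-T23 was at 0.71 ± 0.29, H2-Q7 at 0.65 ± 0.35, the class I regulator Nlrc5 at 0.71 ± 0.40 and B2m at 0.20 ± 0.17. The MHC class II list lay lower, with 11 of 13 members negative and a median of -0.54; H2-Aa was at -0.96 ± 0.51, H2-DMa at -0.52 ± 0.28 and H2-DMb1 at -0.54 ± 0.30, and no member had an unadjusted p under 0.05.

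Cytokine genes were balanced: 19 of 36 tested members had a positive and 17 a negative value, with unadjusted p under 0.05 for 0 higher and 1 lower, with a median of 0.01 (-0.0592 to 0.10 with 1 pool left out, changing sign without wild-type pool 1 or 2 or Apoe-/- pool 5). Icam1 was at -0.56 ± 0.24, Tlr2 at -0.49 ± 0.27, Irak3 at -0.98 ± 0.53, Il1b at -0.09 ± 0.54 and Tnf at 0.12 ± 0.32. Among chemokines and their receptors 9 of 22 tested members had a positive and 13 a negative value (median -0.37, or -0.11 without wild-type pool 5). At an unadjusted p under 0.05, 1 was higher and 6 lower, against 2.43% higher and 4.19% lower over all genes tested. Ccr1 was at -0.94 ± 0.29, Ccl3 at 0.62 ± 0.35 and Ccl2 at 0.08 ± 0.22. For complement genes 5 of 18 tested members had a positive and 13 a negative value (median -0.17). At the same unadjusted level 0 were higher and 5 lower, against those same shares over all genes tested. C5ar1, the signalling C5a receptor and a chromosome 7 neighbour of C5ar2, was at 255 to 477 CPM in wild-type and 194 to 241 CPM in Apoe-/- pools, with no overlap (-0.70 ± 0.23, adjusted p = 0.493), and C3 was at -0.98 ± 0.49.

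Proliferation genes lay below 0 almost throughout: 34 of 35 members were negative (97.1%), against 50.5% of all genes tested other than Apoe. Of the 35 members, 7 were lower with an unadjusted p under 0.05. Over all genes tested, 4.19% were lower at that level. The median was -0.68. Ube2c, which drives exit from mitosis, was at 5.79 to 32.4 CPM in wild-type and 0.836 to 8.34 CPM in Apoe-/- pools (-1.82 ± 0.56, adjusted p = 0.426), and the mitotic cyclins Ccnb1 and Ccnb2 at -1.85 ± 0.60 and -2.73 ± 0.93. None of these was called, and several of the pools held fewer than 10 CPM of each gene.

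**Figure D5:**
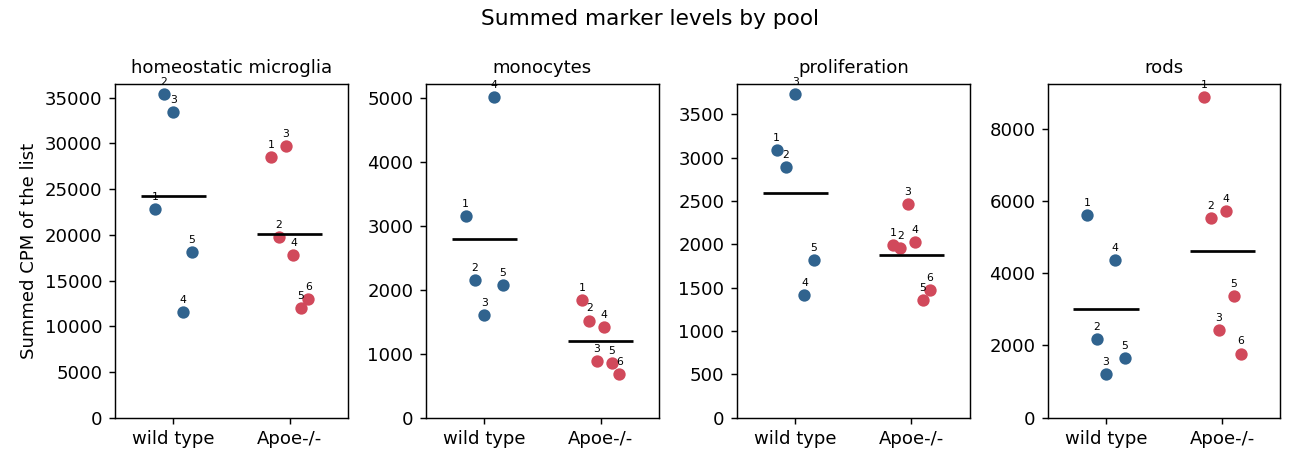
Summed CPM of the homeostatic microglia, monocyte, proliferation and rod lists in each pool, numbered by pool, with group means as bars. Monocyte sums span 1612 to 5015 CPM in wild-type and 679 to 1838 CPM in Apoe-/- pools, and the 4 lists overlap between groups.

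Stress and metabolic lists were shifted slightly below 0. Immediate early genes had a median of -0.17 (7 of 28 tested members positive and 21 negative). Of its members, Ier2 was at -1.43 ± 0.37 (adjusted p = 0.288), Egr3 at 1.71 ± 0.63, Fosl2 at -0.75 ± 0.39, Egr1 at 0.07 ± 0.20 and Jun at -0.13 ± 0.24. For chaperones the median was -0.11 (8 of 29 tested members positive and 21 negative). Of its members, Hspa8 was at -0.58 ± 0.17, Xbp1 at -0.46 ± 0.22 and Sdf2l1 at -0.40 ± 0.22. Oxidative stress and iron genes had a median of -0.16 (12 of 31 tested members positive and 19 negative). Of its members, the peroxide-reducing enzymes Prdx6 and Gpx1 were at -1.06 ± 0.31 and -0.62 ± 0.23 and Txn1 at -0.47 ± 0.22. Glycolysis genes had a median of -0.23 (4 of 22 tested members positive and 18 negative). Of its members, the lactate exporter Slc16a3 was at -0.69 ± 0.22, Pfkfb3 at 0.61 ± 0.21 and Eno1 at -0.46 ± 0.20. Oxidative phosphorylation genes had a median of -0.13 (8 of 40 tested members positive and 32 negative). Of its members, Uqcrc1 was at -0.40 ± 0.20 and Cox6a1 at -0.29 ± 0.19. Of the ribosomal protein genes, 41 of 45 were negative (median -0.16). Of its members, Rpl18 was at -0.36 ± 0.17 and Rps7 at -0.46 ± 0.26. GC content moved with the fold changes over all genes: the median was 0.17 in the fifth of genes with the lowest GC and -0.11 in the fifth with the highest.

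Transcripts of retinal cells were present in every pool. All 14 rod genes had positive values, 1 with an unadjusted p under 0.05, and their median was 0.63; the summed level was 1219 to 5609 CPM in the wild-type pools and 1775 to 8862 CPM in the Apoe-/- pools. The rod transcription factor Nr2e3 was at 1.11 ± 0.43, Gngt1 at 0.83 ± 0.43 and Pde6g at 0.70 ± 0.37. Cone genes had a median of -0.79 over 7 tested (1 of 7 tested members positive and 6 negative). Of its members, Opn1sw was at 3.43 ± 1.36, Opn1mw at -3.27 ± 1.39 and Gnat2 at -2.36 ± 1.41. Other retinal neuron genes had a median of 0.24 (9 of 12 tested members positive and 3 negative). Of its members, Prkca was at -1.14 ± 0.62, Trpm1 at 1.51 ± 0.85 and Calb1 at 0.48 ± 0.43. Mueller glia genes other than Apoe had a median of 0.25 (5 of 8 tested members positive and 3 negative), or 0.75 without wild-type pool 1. Of its members, Slc1a3 was at 1.41 ± 0.44, Vim at -1.26 ± 0.46 and Clu at 2.25 ± 0.89. The list's summed level without Apoe was 336 to 688 CPM in wild-type and 283 to 410 CPM in Apoe-/- pools. Rgr, a retinal opsin of the pigment epithelium, was at 0 to 0.444 CPM in wild-type and 1.10 to 11.9 CPM in Apoe-/- pools without overlap (4.56 ± 1.11, adjusted p = 0.257), and Ttr and Best1 of the same list were at 3.51 ± 1.36 and -0.63 ± 0.45 (median 0.16, 3 of 5 tested members positive and 2 negative; -0.21 to 0.52 with 1 pool left out, changing sign without wild-type pool 3 or Apoe-/- pool 2 or 5).

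Markers of other blood and vessel cells rested on few genes. Dendritic cell genes had a median of 0.06 (-0.13 to 0.28 with 1 pool left out, changing sign without wild-type pool 2 or 3 or Apoe-/- pool 3 or 5). Of its members, Btla was at 0 CPM in all wild-type pools and in Apoe-/- pools 1, 3, 4 and 6, Cd24a at -1.11 ± 0.69 and Ccr7 at 1.57 ± 1.21. Neutrophil genes had a median of -0.96 over 7 tested (1 of 7 tested members positive and 6 negative), or 0.19 without wild-type pool 4. Of its members, Mmp9 was at -2.45 ± 1.34, Cxcr2 at -0.96 ± 0.56 and Mmp8 at -1.33 ± 0.86. Lymphocyte genes had a median of 0.99 over 5 tested (3 of 5 tested members positive and 2 negative). In a fit of only the 11 phagocytic libraries the median was -0.18, over those members which that fit tested. In the main fit Cd4 was at 1.96 ± 0.92, Cd3d at 0.99 ± 0.51 and Ms4a1 at 1.12 ± 1.02. Endothelial and pericyte genes had a median of -0.08 over 5 tested (2 of 5 tested members positive and 3 negative; -0.22 to 0.59 with 1 pool left out, changing sign without wild-type pool 1 or 4 or Apoe-/- pool 3 or 4). Of its members, Cspg4 was at 1.26 ± 1.16, Vwf at 0.55 ± 0.59 and Kdr at -0.16 ± 0.67. Red blood cell genes were too low to test, at a summed 0.322 to 5.13 CPM in wild-type pools and 0 to 5.30 CPM in Apoe-/- pools other than pool 3, which stood at 629.9 CPM.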

How the data were processed

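Smart-seq2 RNA libraries of sorted retinal microglia were quantified per transcript by the authors with Salmon 1.4.0, and mm10 is the build named, per the submitters' processing notes, which also list R 4.0.3 and DESeq2 1.30.1. The authors deposited an estimated count and a TPM value, made by that quantification, for each of 116248 transcripts per library; TPM values deposited by the authors were used only for mean levels. Estimated counts were summed per gene with GENCODE annotation on GRCm38 (116072 transcripts matched; 0.118% to 0.262% of reads were unmatched) and rounded. Genes were filtered with filterByExpr, scaled by TMM and tested with edgeR 4.0.16 (R 4.3.3) in 1 fit of 22 libraries in 4 groups, contrasting the 2 phagocytic groups; the common biological coefficient of variation was 0.426. Calls needed a Benjamini-Hochberg adjusted p under 0.05. Levels are TMM-scaled CPM. No pair of pools in a group was a duplicate (25 pairs, chi-square per degree of freedom 7.03 to 41.9).

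The text names every called gene, a panel of microglial genes, the 3 members of each of 36 lists with the smallest p and the genes flanking Apoe; others are said to be chosen later. Some genes that this rule names are not reported here. The members and lists were chosen with earlier results of these data known. Alternatives used DESeq2 1.42.0, limma 3.58.1 (voom), other scalings, filters and covariates, a GC adjustment, a replicate block and left-out libraries. Same-numbered phagocytic pools of the wild-type and Apoe-/- groups did not pair. Pairing of phagocytic with non-phagocytic pools of a genotype was not tested. Totals of 1131045 to 3643499 counts per phagocytic library limit low genes most.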

Additional observations from a re-analysis of the deposited data

Results flagged for a closer look

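Within a group, a pool was singled out when its gap to the next pool exceeded Dixon's 95% critical value for the group's range. Chance alone gives about 1 in 20 for normally distributed values. CPM were not log-transformed, so that rate may not hold here. Of 321 groups 34 (10.6%) were singled out, 20 in Apoe-/- and 14 in wild type. In 12 of the Apoe-/- cases the far pool was pool 1, the deepest library. These were Bin1 at 553 CPM, Ctsk at 8.81, C1qc at 1195, Ccr2 at 90.9, Ier2 at 176, Tgfbr2 at 384, Eno1 at 1087, Rps2 at 655, Mmp8 at 47.6, Opn1mw at 5.23, Clptm1 at 108 and Lsm4 at 39.4 CPM. Each of these pool 1 values was the highest of its group.

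Apoe-/- pool 5 stood apart for Apoc2 at 13.5, Tgfb1 at 29.7, Ccl3 at 1203 and Il1b at 605 CPM. Other Apoe-/- pools stood apart for Ifit2 at 192, Calb1 at 35.6, Vim at 70.2 and Cspg4 at 20.9 CPM.

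In wild type, pool 2 stood apart for Apoe at 5145 CPM, Spp1 at 3291, Gm1840 at 0.322 and Ifit2 at 1.93 CPM. Wild-type pool 4 stood apart for Anxa1 at 95.4, Mmp9 at 74.4, Cxcr2 at 185 and Clu at 3.85 CPM. Wild-type pool 1 stood apart for Lrp8 at 23.4, Opn1mw at 47.6 and Gnat2 at 28.5 CPM, pool 3 for Mertk at 239 and Opn1sw at 3.43 CPM, and pool 5 for Apoc1 at 0 CPM.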

How the results depend on the processing

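Over 25 alternatives, 4 genes called became 19 with DESeq2 (5 higher, 14 lower), 96 without a filter (21 higher, 75 lower), 2 with only the 11 phagocytic libraries (0 higher), and 3 with limma-voom and with the stricter filter (0 higher in each). The GC adjustment, chosen after seeing the data, gave 5 lower. Also chosen after seeing the data, leaving out the 4 pools of few Y-linked reads gave 2 calls (0 higher), and leaving out the 2 of most satellite-like reads gave 2 (1 lower). Leaving out 1 pool at a time gave 3 to 23 calls, 1 to 2 higher and 2 to 22 lower; the 23 came without Apoe-/- pool 1. Fitting the replicate number as a block gave 7 calls, 6 lower. Deviations of same-numbered wild-type and Apoe-/- phagocytic pools correlated at 0.042, 0.039, 0.429, 0.086 and 0.231. Only number 3 matched best with its own number. Whether same-numbered phagocytic and non-phagocytic pools of a genotype pair was not tested. Apoe was called in every alternative. Of 3848 values of named genes, 11 fell short of the threshold, 59 passed it and none that was called in either fit reversed; 114 uncalled values changed sign. The causes were not tested.

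Of 875 list medians in alternatives, 26 moved by more than 1 SD between pools of the list's mean. Each median covers only the list members tested in that alternative, so its genes can differ from those of the main fit. Whether a move came from changed values or from members no longer tested was not tested. With the satellite-like share as covariate, the median was 0.0598 for lipoprotein and scavenger receptors, 0.0695 for lysosome and 0.56 for lymphocytes. Without the 4 pools of few Y-linked reads it was -0.17 for lipid droplets and -0.20 for heat shock; without the 2 of most satellite-like reads, 0.00578 for immediate early genes and 0.39 for lymphocytes. With length-scaled counts it was -0.33 for oxidative stress and 0.71 for lymphocytes. Under the stricter filter it was -0.43 for dendritic cells, -0.20 for lymphocytes, -0.11 for Mueller glia and -0.41 for pigment epithelium. With limma-voom it was 0.58 for lymphocytes and 1.16 for Mueller glia, with only the phagocytic libraries -0.18 and without satellite-like genes -0.17 for lymphocytes, and with the replicate block 0.75 for Mueller glia. Leaving out 1 pool at a time gave chemokines -0.41 to -0.11, amino acid transport 0.0234 to 0.22, neutrophils -1.19 to 0.19, lymphocytes 0.38 to 1.18, Mueller glia 0.0271 to 0.75 and endothelium and pericytes -0.22 to 0.59. The sign of the median changed in 11 lists on leaving out 1 pool; besides the neutrophil and endothelial lists these were pigment epithelium (-0.21 to 0.52), dendritic cells (-0.13 to 0.28), lipoprotein and scavenger receptors (-0.28 to 0.0183), lysosome (-0.13 to 0.0199), lipid droplets and fatty acid use (-0.0875 to 0.0208), LXR targets and cholesterol efflux (-0.0872 to 0.0961), TGF-beta and activin signalling (-0.0777 to 0.0394), engulfment and efferocytosis (-0.16 to 0.00031) and inflammatory cytokines and NF-kB (-0.0592 to 0.10). Their medians therefore carry no direction.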
